A study of Mus musculus with 2 samples.

Results

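The genes described here make, clear, carry and read retinoic acid in the embryonic mouse lower jaw. They were chosen by name: Aldh1a2 and Aldh1a3 (synthesis), Cyp26a1 and Cyp26b1 (breakdown), Rara, Rarb and Rarg (nuclear receptors), and Crabp1 and Crabp2 (cellular binding proteins). All 9 had a row in both deposited tables, among 27998 genes at embryonic day (E) 12.0 and 31053 genes at E9.5. The data were 2 single-cell RNA-seq libraries (10x Genomics 3′ chemistry, counted as unique molecular identifiers, UMIs), 1 per stage. The E12.0 library came from mandibular arch epithelium of K14Cre;R26mT/mG embryos, 6 embryos of a single litter pooled, peeled from the mesenchyme and sorted for GFP. In these embryos a Keratin 14 promoter drives the Cre that switches on membrane GFP, so cells without past promoter activity were not collected. The E9.5 library came from whole mandibular arches of the same genotype, 8 pooled littermates, with no sort and no treatment at either stage. With 1 pooled library per stage there was no replicate, no difference was tested, and every 95% interval given covers counting error only.

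Retinoic acid is made from vitamin A by oxidation of retinol to retinaldehyde and then, by ALDH1A enzymes, to the acid. CYP26 enzymes degrade it, so that its local level depends on the balance of source and sink. Inside the cell it is bound by CRABP proteins and acts through RAR receptors paired with RXR on direct repeats in DNA, and in the embryonic face and pharynx both excess and lack of it are known to disturb jaw, tooth and pouch development.

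On GRCm38 (GENCODE gene spans) Aldh1a2 lies at chr9:71215789-71296243, Aldh1a3 at chr7:66390890-66427517, Cyp26a1 at chr19:37697798-37701536 and Cyp26b1 at chr6:84571414-84593908. Rara lies at chr11:98927818-98974942, Rarb at chr14:16430839-16819156 and Rarg at chr15:102234938-102257517. Crabp1 lies at chr9:54764748-54773110 and Crabp2 at chr3:87948666-87953376.

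Of the member promoters, those of Rarb and Cyp26a1 are shown because both genes differed between regions and both hold a direct repeat of the kind RAR receptors are known to bind. RefSeq promoter windows (GRCm38.p6, 250 bases before to 50 after the transcript start) were at hand for 7 of the 9 members, 11 windows in all, and were searched on both strands for 2 half-sites in direct repeat with a spacing of 1, 2 or 5 bases. A half-site was AGGTCA itself, or AGTTCA as another form, or GGGTCA as another form, or else GGTTCA as its last form. The half-sites are capitalised in these 29-base stretches, written 5′ to 3′ along the gene's strand.
Rarb: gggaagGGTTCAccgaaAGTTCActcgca
Cyp26a1: taaagaTGAACTttgggTGAACTaatttg
The Rarb stretch is chr14:16575507-16575535 on the minus strand, with the repeat 53 to 37 bases before the RefSeq start and inside the first exon of a longer GENCODE transcript. The Cyp26a1 stretch is chr19:37697770-37697798 on the plus strand, with the repeat 32 to 16 bases before the start. There it lies on the opposite strand, where it reads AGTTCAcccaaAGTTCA. Both repeats had the 5-base spacing, which was found in 0.0974% of 32851 RefSeq promoters. Spacings of 1 and 2 were found in 0.222% and 0.268% of promoters and in none of the 11 member windows. At least 1 half-site was present in 43.7% of all promoters, so a lone half-site was common. A match describes letters and not occupancy.

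After the study's filters (200 to 5500 genes and at most 10% mitochondrial UMIs), 11355 E12.0 cells with a median of 6349 UMIs and 12744 E9.5 cells with a median of 13460.5 UMIs remained. Levels are given as CPM (counts per 1000000), the summed UMIs of a gene over the cells of a group against its UMIs of all genes. Because 3′ UMIs capture genes unequally, levels were compared between groups and not between genes. E12.0 cells were placed in zones by the gene they carried: 544 cells with Pax9, 482 with Dmrt2 (a marker of epithelium between tooth and tongue), 1262 with Irx1 (dental epithelium), 685 with Pthlh and 1540 with Gjb2 or Gjb6 (anterior epithelium, at least 2 UMIs together). Other markers are given only for the zones they were taken to mark, so by themselves they place no zone. Cxcl14, an anterior marker, stood at 2191 CPM in the Gjb2/Gjb6 zone and 995.5 CPM in the Pthlh zone, and Rtl3, a marker behind the teeth, at 34.6 CPM in the Pax9 zone and 30.6 CPM in the Dmrt2 zone. A zone holds the cells that passed a single gate, while 615 cells passed several and 6227 passed none. E9.5 cells were divided by marker sums into 2573 epithelial and 377 endodermal cells, and 961 Hand2-positive and 3997 Hand2-negative mesenchymal cells. Further groups were 1389 crest-gated, 320 core-mesoderm-gated, 313 endothelial and 58 blood cells. Another 269 cells were undecided between epithelium and endoderm, and 2476 stayed unassigned. The E12.0 cells were not gated by class, and their markers were those of epithelium. They held 426 CPM of Epcam and 0.180 CPM of Twist1. E9.5 epithelium held 536 CPM of Epcam against 11.0 CPM in mesenchyme, but Epcam was part of the E9.5 gate, so this difference was set by it and is no check. Twist1, a mesenchymal gene of the same gate, stood at 21.1 CPM in E9.5 epithelium against 699.5 CPM in mesenchyme. Whether the lower level came from RNA free in the cell suspension (free RNA), from doublets or from expression was not tested. The libraries shared 51 cell barcodes, 44 of them in kept cells.

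A member was called higher or lower where it reached 5 CPM in either group and differed at least 1.5-fold, a rule of size and not a test. It was applied to all genes except the gate and class markers, and genes that reached 5 CPM are called compared genes.

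Counted over all members, 4 of the 7 that reached 5 CPM were called in the Pax9 zone, where 12.1% of all compared genes were called (3 members higher, 1 lower). In the Dmrt2 zone 2 of 6 were called (10.3% of all genes), in the Irx1 zone 2 of 6 (8.09%), in the Pthlh zone 3 of 6 (4.3%) and in the Gjb2/Gjb6 zone 4 of 6, all lower (9.85%). At E9.5, 3 of 8 were called between endoderm and epithelium (7.8%), 6 of 7 between mesenchyme and epithelium (27.8%) and 1 of 4 between the Hand2 groups (5.67%). The third endodermal call, Aldh1a3 at 1.51-fold lower, rested on few cells: without the 5 highest cells of each group the values were 5.06 and 4.79 CPM, and thinning turned its direction. The median log2 difference of the compared members was 0.23 in the Pax9 zone against 0.03 over all genes, and -0.84 in the Gjb2/Gjb6 zone against -0.03.

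**Figure D1:**
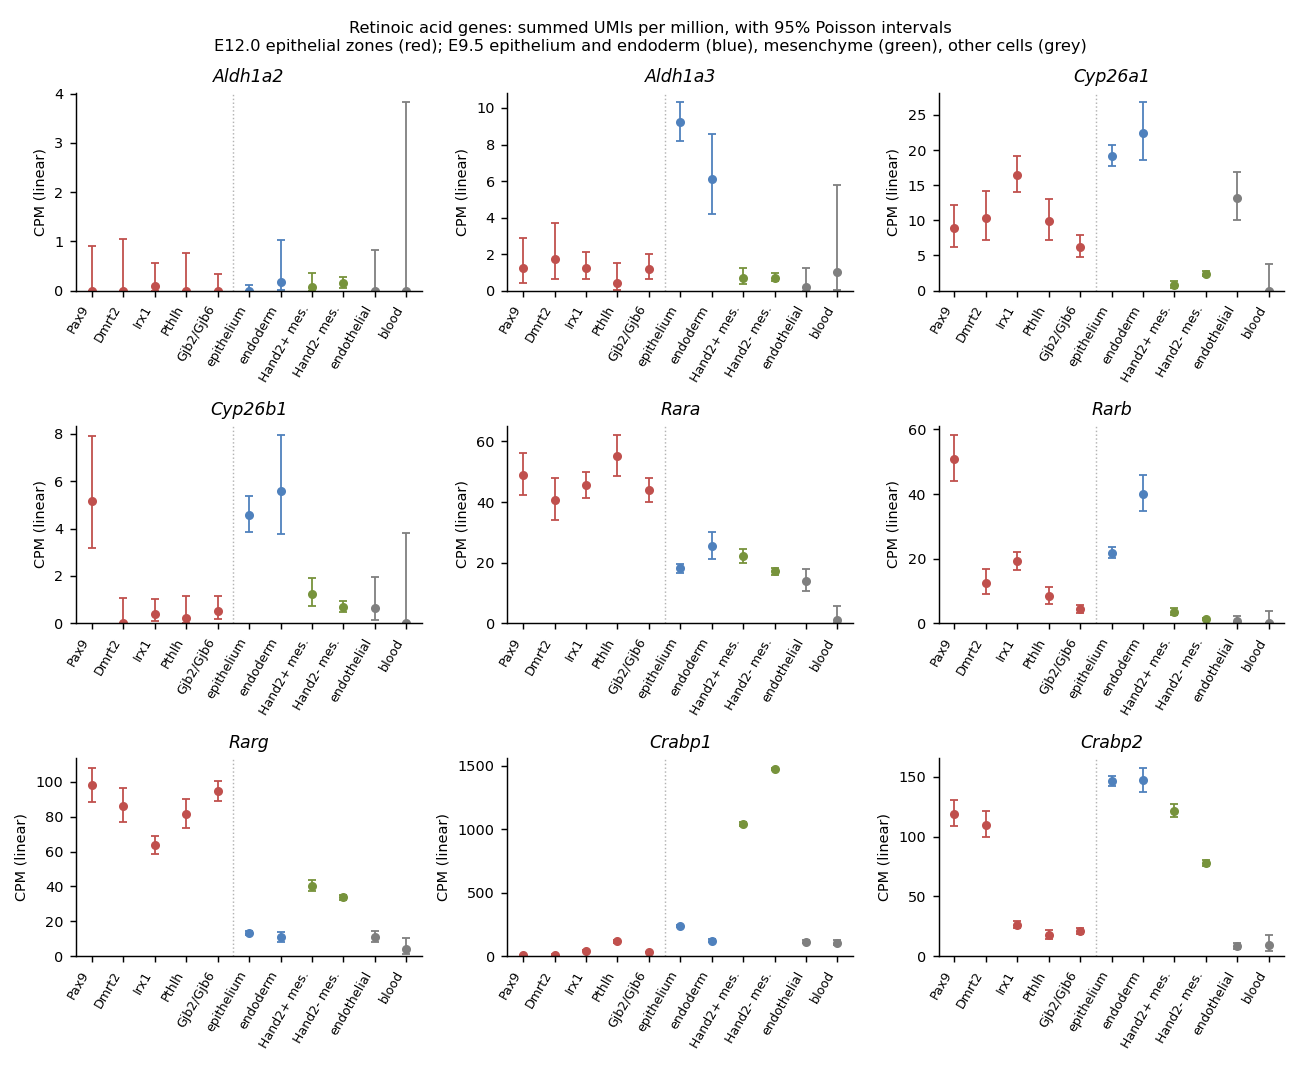
Levels in CPM (linear axis, 1 panel per gene) in the 5 E12.0 zones and in E9.5 cell groups, with bars for the exact 95% Poisson interval. Rarb peaked in the Pax9 zone (50.9 CPM) and in E9.5 endoderm (40.1 CPM), while Crabp1 reached 1473 CPM in Hand2-negative mesenchyme.

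The synthesis genes among the members, Aldh1a2 and Aldh1a3, were nearly silent in the E12.0 epithelium. Other genes of synthesis, such as Rdh10, are described with the wider pathway below. Aldh1a2, the main retinaldehyde dehydrogenase of the trunk mesoderm, gave 2 UMIs in 11355 E12.0 cells and 14 UMIs in 12744 E9.5 cells. In E9.5 epithelium it gave 0 UMIs, which allows a level of up to 0.0907 CPM by the limit of 3 counts. Aldh1a3, the enzyme known from the nasal and optic epithelia, stood between 0.419 CPM in the Pthlh zone and 1.71 CPM in the Dmrt2 zone, with intervals that overlapped. It was not compared between zones because no group reached 5 CPM. At E9.5 its level was 9.22 CPM (8.22 to 10.3) in epithelium, 6.12 CPM (4.21 to 8.59) in endoderm and 0.709 CPM in mesenchyme.

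These Aldh1a3 UMIs were held by few cells. Of the 305 UMIs in E9.5 epithelium, 244 (80.0%) lay in 17 cells with at least 5 each, 0.661% of the 2573 cells, and the highest cell held 60. Those 17 cells were not shallow, with 5986 to 27543 UMIs each, and 1 of them was called a doublet. Their Epcam (526 CPM) was like that of the other epithelial cells (536 CPM). Mesenchymal Twist1 (26.1 against 21.1 CPM, on 7 UMIs) and Prrx2 (22.4 against 33.8 CPM, on 6 UMIs) were low on both sides. All of these genes were part of the E9.5 gate, so their levels were set by it and are no check. Krt18, an epithelial keratin outside the gate, stood at 399 CPM in the 17 cells and 680 CPM in the rest, and Krt8 at 324 against 424 CPM. Genes named after the values were seen differed widely: Pax6, an eye and nasal placode regulator, stood at 145 CPM in the 17 cells and 0.762 CPM in the rest, and Six6 at 82.0 against 0.305 CPM. Pax6 was found in 14 of the 17 cells. Fgf8, a gene of the lateral oral epithelium, stood at 7.46 CPM against 146 CPM, and Vgll2 at 41.0 against 241 CPM. The other epithelial cells held 22.1 CPM of Rarb and 13.4 CPM of Rarg. No UMI of either was found in these 17 cells, which are too few for a 0 to show absence. Since the cells were picked for Aldh1a3, these are descriptions. The other epithelial cells held 1.86 CPM of Aldh1a3. Whether the 17 cells belong to the mandibular arch or came with it from neighbouring tissue was not tested, so the 9.22 CPM is the level of the gated cells and not shown to be that of arch epithelium.

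Endodermal Aldh1a3 was spread more evenly. Its 33 UMIs lay in 32 of 377 cells, no cell held more than 2, and the share of cells with a UMI after thinning every cell to 4100 UMIs was 3.72% (2.05 to 6.17) against 1.39% (0.973 to 1.93) in epithelium. The thinned share was 0% in the 53 blood cells deep enough, which should lack the gene (median depth of all blood cells 17029 UMIs, of endoderm 13568). With 53 cells, a share like that of endoderm could also give 0, so blood sets no background here. The summed level and the share ranked endoderm and epithelium in opposite order, so no order was read. Within endoderm, 32 of the 33 UMIs fell in the 247 cells with Pax1, a pharyngeal pouch regulator (8.97 against 0.548 CPM in the 130 cells without it).

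Of the breakdown genes, Cyp26a1 was found at over 5 CPM in all 5 zones and Cyp26b1 in 1. Cyp26a1 stood at 16.4 CPM (14.0 to 19.2) in the Irx1 zone, 10.3 in the Dmrt2 zone, 9.84 in the Pthlh zone, 8.85 in the Pax9 zone and 6.22 (4.84 to 7.87) in the Gjb2/Gjb6 zone. It was called 1.62-fold higher (1.35 to 1.92) in the dental Irx1 zone and 1.89-fold lower (1.47 to 2.45) in the Gjb2/Gjb6 zone, each against all other cells. In the order of levels, only the step from the Irx1 to the Dmrt2 zone had a ratio interval that left out 1. The Irx1 call was lost when the cells were thinned, at a log2 difference of 0.31. Cyp26b1 gave 21 UMIs in 17 cells of the Pax9 zone, 5.16 CPM (3.19 to 7.89), against 0.677 CPM in all other cells, a 7.62-fold difference (4.35 to 12.9). In the other zones it stayed at or below 0.541 CPM, with 0 UMIs in the Dmrt2 zone, where up to 0.857 CPM is allowed. The 5 cells with the most Cyp26b1 held 42.9% of the Pax9 zone UMIs, and without them the level was 2.98 CPM. The 2 breakdown genes were thus highest in different zones.

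At E9.5 both breakdown genes stood higher in epithelium and endoderm than in the Hand2 groups of mesenchyme, which leave out the core-gated cells described below. Cyp26a1 stood at 19.2 CPM (17.7 to 20.8) in epithelium, 22.4 CPM (18.6 to 26.8) in endoderm and 2.07 CPM in mesenchyme, a 9.28-fold lower level (7.74 to 11.2). Cyp26b1 stood at 4.57, 5.56 and 0.794 CPM. Its difference between mesenchyme and epithelium was not called, since neither reached 5 CPM. Epithelium and endoderm did not differ by the rule for either gene, with ratios of 1.17 (0.954 to 1.42) for Cyp26a1 and 1.22 (0.795 to 1.81) for Cyp26b1.

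The Cyp26a1 signal followed Vgll2 within the epithelium. In a split chosen after its values were seen, the 1305 cells with Vgll2, a transcription cofactor gene of the pharyngeal arch epithelium, held 29.4 CPM of Cyp26a1 and the 1268 without it 4.81 CPM, a 6.12-fold difference (4.74 to 8.02). Cells with Vgll2 were deeper, at a median of 14322 against 10435 UMIs. After thinning, Cyp26a1 was found in 10.2% (8.57 to 12.1) of cells with Vgll2 but no Tfap2b and in 0.917% (0.441 to 1.68) of cells with neither. Unlike Aldh1a3, the difference did not rest on few cells, as leaving out the 5 highest cells on each side gave 28.0 against 3.81 CPM. Rarb ran the other way at a smaller size, with 18.1 CPM in cells with Vgll2 and 27.3 CPM in cells without it. A like split of Aldh1a3 by Tfap2b (36.5 against 6.43 CPM) rested on few cells and stood at 6.67 against 3.08 CPM without the 5 highest cells on each side.

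**Figure D2:**
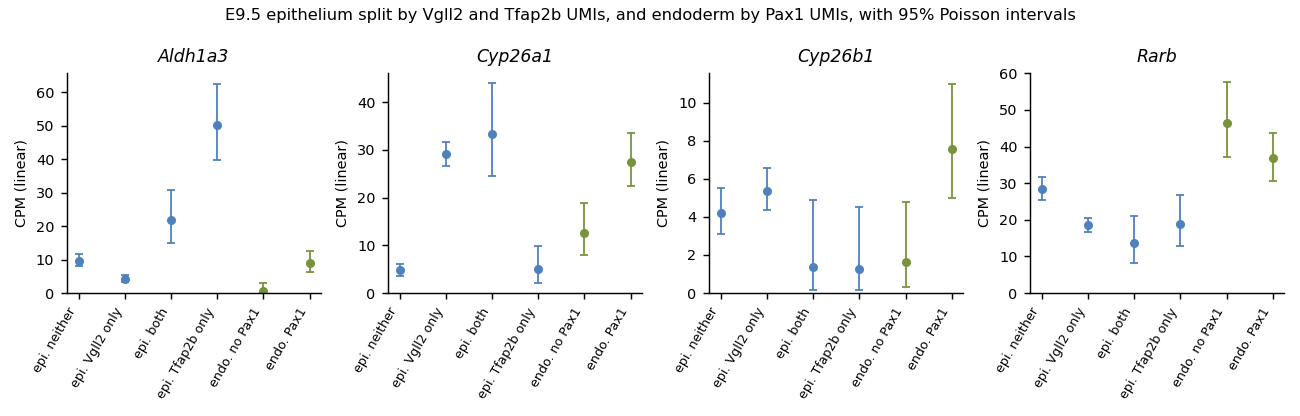
CPM (linear axis) of 4 members in E9.5 epithelium split by Vgll2 and Tfap2b UMIs (blue) and in endoderm split by Pax1 UMIs (green), with 95% Poisson intervals. Cyp26a1 was high where Vgll2 was present, 29.1 CPM with Vgll2 only and 4.78 CPM with neither, and the Aldh1a3 peak in Tfap2b cells (50.2 CPM with Tfap2b only) came largely from the cell that held 60 UMIs.

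In endoderm, cells with Pax1 held 27.5 CPM of Cyp26a1 and those without 12.6 CPM, a 2.18-fold difference (1.37 to 3.60). Cyp26b1 stood at 7.57 against 1.64 CPM, where the group without Pax1 had only 3 UMIs, with a ratio of 4.61 (1.42 to 23.7), and 5 cells held 59.3% of the UMIs on the Pax1 side. Without the 5 highest cells on each side Cyp26a1 stood at 18.7 against 5.17 CPM. Outside epithelium and endoderm, Cyp26a1 was highest in the 320 core-gated cells, which carry Tcf21, Msc or Myf5 of branchiomeric muscle progenitors, at 35.4 CPM (30.4 to 41.1). Endothelial cells held 13.1 CPM and blood cells 0 UMIs.

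Among the receptors, Rarb marked regions and Rara and Rarg were broad. At E12.0 Rarb stood at 50.9 CPM (44.2 to 58.3) in the Pax9 zone, 19.2 (16.5 to 22.1) in the Irx1 zone, 12.6 in the Dmrt2 zone, 8.38 in the Pthlh zone and 4.33 (3.19 to 5.74) in the Gjb2/Gjb6 zone. The highest and lowest zones differed 11.8-fold (8.55 to 16.4), and only the Dmrt2 and Pthlh neighbours in this order had a ratio interval that held 1. It was called in 3 zones: 3.95-fold higher (3.39 to 4.60) in the Pax9 zone, 1.82-fold lower (1.33 to 2.57) in the Pthlh zone and 3.83-fold lower (2.87 to 5.23) in the Gjb2/Gjb6 zone. The lower call in the Pthlh zone was lost where cells passing several gates were included, at a log2 difference of -0.47.

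After thinning, Rarb was found in 18.9% (15.6 to 22.6) of Pax9 zone cells and in 1.44% (0.894 to 2.19) of Gjb2/Gjb6 zone cells, and in 136 of 544 and 40 of 1540 cells as counted, at median depths of 6750.5 and 6618.5 UMIs. The E12.0 sort left no cell type that should lack Rarb, so no background share could be set beside these. Over all kept cells, those that passed other gates among them, Rarb also rose with the Pax9 count. It stood at 12.4 CPM in cells with no Pax9 UMI, 39.6 (33.7 to 46.3) with 1, 51.8 (39.9 to 66.1) with 2 and 76.8 (54.1 to 106) with 3 or more. The intervals for 1 and 2 UMIs overlapped, as did those for 2 and for 3 or more. The Dmrt2 zone, also taken to lie behind the teeth, was not called for Rarb. Its ratio to all other cells was 0.840, with an interval that held 1. The 84 cells that carried both Pax9 and Dmrt2 held 21.5 CPM (11.8 to 36.1). At E12.0 the paper uses Foxa1 as a marker of tongue epithelium. Pax9 zone cells with Foxa1 held 39.1 CPM of Rarb and those without it 55.0 CPM, a ratio of 0.711 (0.492 to 1.01).

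Rara, the receptor known as the most widely expressed, ranged from 40.6 CPM in the Dmrt2 zone to 55.1 CPM in the Pthlh zone. Rarg, the receptor known from skin and cartilage, ranged from 63.6 CPM (58.7 to 68.7) in the Irx1 zone to 98.0 CPM (88.6 to 108) in the Pax9 zone. Neither was called in any of the 5 zones, and the largest departure was Rarg in the Irx1 zone, 1.37-fold lower (1.26 to 1.49). In the 258 cells with at least 2 Shh UMIs, Rarg stood at 52.0 CPM, Rara at 57.3 CPM and Rarb at 3.37 CPM. In the paper Shh labels the signalling centre of the tooth bud and also taste bud precursors, so this gate may hold both. Called doublets made up 12.4% of these cells, against 5.82% of all kept cells.

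**Figure D3:**
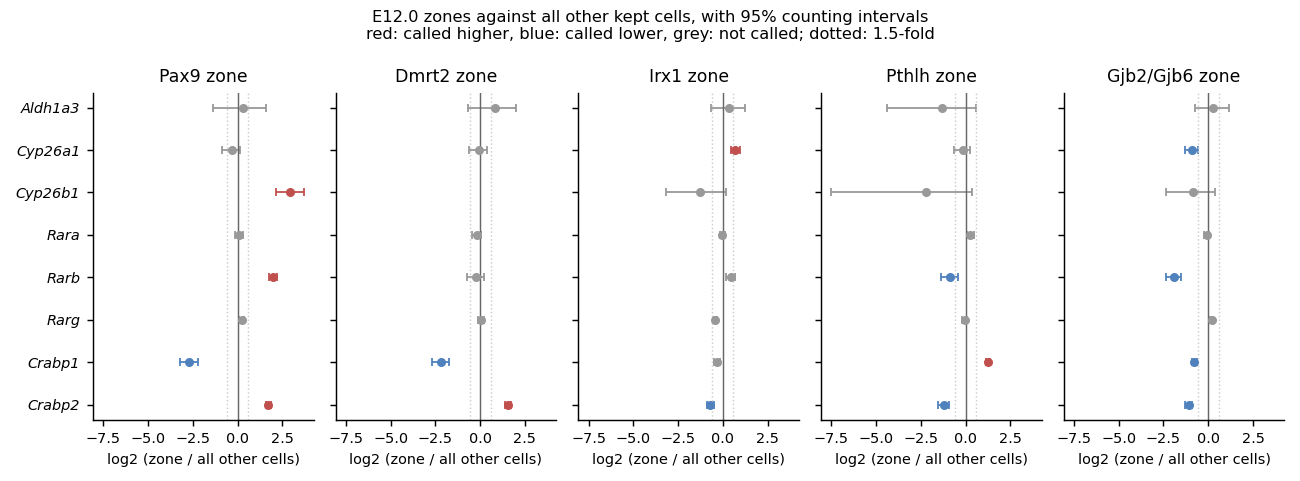
Log2 ratio of each member's CPM in 1 E12.0 zone to that in all other kept cells, 1 panel per zone, with 95% counting intervals; red and blue points passed the size rule (dotted lines mark 1.5-fold) and Aldh1a2 is left out for want of UMIs. The Pax9 zone had 3 members called higher and 1 lower, and the Gjb2/Gjb6 zone had 4 lower and none higher.

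At E9.5 the receptors divided by tissue. Rarb stood at 40.1 CPM (34.9 to 45.8) in endoderm, 21.9 CPM (20.4 to 23.6) in epithelium, 3.61 in Hand2-positive and 1.24 in Hand2-negative mesenchyme. The 58 blood cells gave 0 UMIs, but they are too few to set a background for the mesenchymal levels. Endoderm was 1.83-fold higher (1.56 to 2.13) than epithelium, and mesenchyme was 12.5-fold lower (10.3 to 15.2) than epithelium. Rarg ran the other way, with 40.2 and 33.8 CPM in the mesenchymal groups, 13.2 CPM in epithelium and 10.8 CPM in endoderm, and was 2.66-fold higher (2.40 to 2.95) in mesenchyme than in epithelium. Rara differed little, between 17.2 and 25.4 CPM. Both mesenchymal Rarb levels were under 5 CPM, so the ratio between them, 2.92 (2.01 to 4.22) with Hand2 higher, was not called. Hand2 marks the distal part of the arch, towards the midline.

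As shares of all RAR UMIs, Rara varied least of the 3. Rara made up 24.7% to 38.0% in the 5 zones and 32.9% to 34.1% in the 4 E9.5 groups. Rarb made up 52.6% (47.6 to 57.5) in E9.5 endoderm, 41.1% in E9.5 epithelium, 25.7% (22.7 to 28.9) in the Pax9 zone and 3.03% in the Gjb2/Gjb6 zone. In thinned E12.0 cells, cells that had Rarb and another receptor occurred about as often as the product of their shares, at 93 cells against 90.9 for Rara and 158 against 154 for Rarg.

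**Figure D4:**
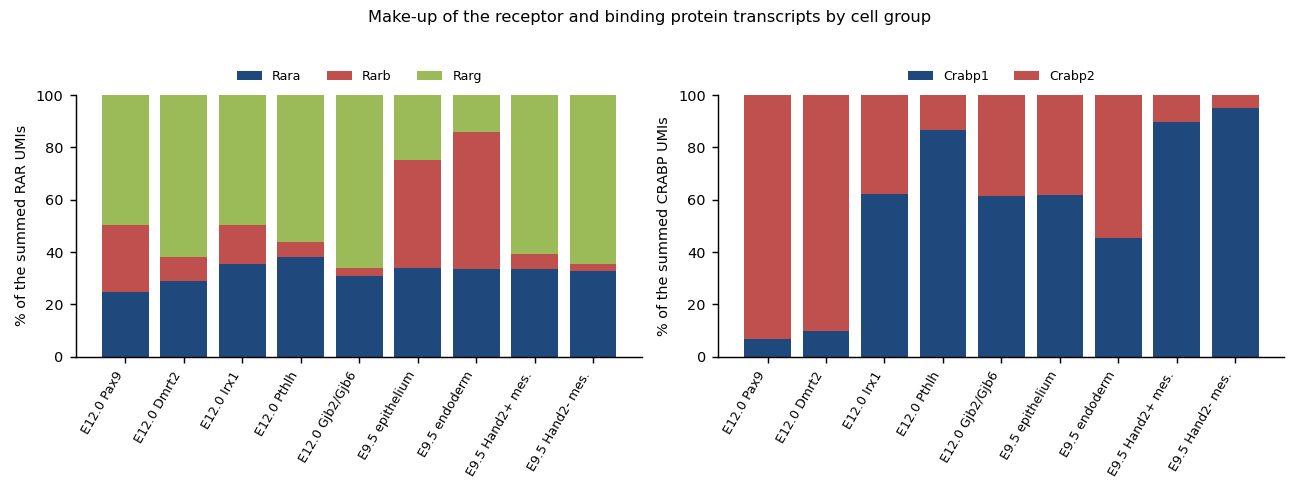
Make-up of the summed RAR UMIs (left) and CRABP UMIs (right), in percent, in 5 E12.0 zones and 4 E9.5 groups. Rarb took 52.6% of RAR UMIs in E9.5 endoderm and 3.03% in the E12.0 Gjb2/Gjb6 zone, and Crabp1 took 6.73% of CRABP UMIs in the Pax9 zone and 86.6% in the Pthlh zone.

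The binding proteins split the E12.0 epithelium between them. CRABP2 is known to deliver retinoic acid to its receptors, and CRABP1 to hold it in the cytoplasm and pass it to breakdown. Crabp2 stood at 119 CPM (109 to 130) in the Pax9 zone and 110.0 CPM (99.2 to 122) in the Dmrt2 zone, and at 26.3, 20.8 and 18.0 CPM in the Irx1, Gjb2/Gjb6 and Pthlh zones. Crabp1 stood at 117 CPM (107 to 127) in the Pthlh zone, 43.5 in the Irx1 zone, 33.1 in the Gjb2/Gjb6 zone, and 12.0 and 8.60 CPM (5.99 to 12.0) in the Dmrt2 and Pax9 zones. The Pax9 and Dmrt2 zones were thus high in Crabp2 and low in Crabp1, and the Pthlh zone the reverse.

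Against all other cells, Crabp2 was 3.28-fold higher (2.98 to 3.62) in the Pax9 zone and 2.94-fold higher (2.64 to 3.28) in the Dmrt2 zone, and 2.34-fold lower (1.89 to 2.93) in the Pthlh zone. Crabp1 was 6.47-fold lower (4.64 to 9.30) in the Pax9 zone, 4.59-fold lower (3.39 to 6.38) in the Dmrt2 zone and 2.38-fold higher (2.17 to 2.60) in the Pthlh zone. In the Gjb2/Gjb6 zone both were called lower, Crabp1 1.71-fold (1.53 to 1.91) and Crabp2 2.11-fold (1.84 to 2.42). The Crabp1 call there was lost with a limit of 5% mitochondrial UMIs, at a log2 difference of -0.17. That limit left 169 of the 1540 cells of this zone, but 262 of the 482 cells of the Dmrt2 zone. The mitochondrial share thus differed between zones, and its part in the zone differences was not tested. In the Irx1 zone Crabp2 was 1.62-fold lower (1.43 to 1.85), a call lost when a gate needed 2 UMIs.

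Joint detection was counted over all zones together. Among 10331 thinned E12.0 cells, 105 carried both Crabp1 and Crabp2 where the product of the 2 shares gives 231, a ratio of 0.454 (0.371 to 0.549). A ratio below 1 can follow from the difference between zones alone. No ratio was computed within a zone, so nothing was read about single cells. In E9.5 epithelium the ratio was 1.06 (0.990 to 1.13), with 683 cells carrying both. Over all kept E12.0 cells, Crabp1 also rose with the Pthlh count. It stood at 48.1 CPM in cells without Pthlh, 93.7 with 1 UMI, 109 with 2 and 130.4 (94.7 to 175) with 3 or more, although the last 3 intervals overlapped.

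**Figure D5:**
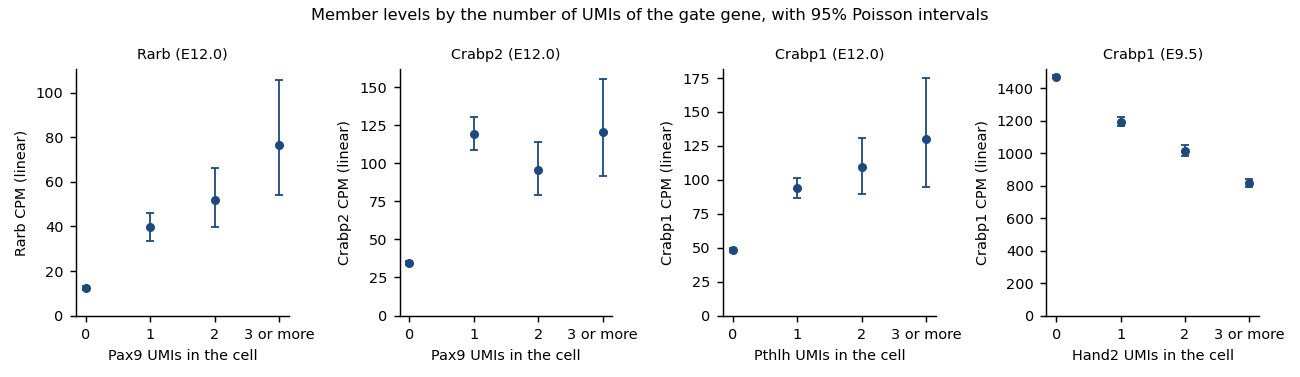
CPM (linear axis) of Rarb and Crabp2 by the number of Pax9 UMIs in the cell and of Crabp1 by Pthlh UMIs, over all kept E12.0 cells, and of Crabp1 by Hand2 UMIs in E9.5 mesenchyme, with 95% Poisson intervals. Rarb ran from 12.4 to 76.8 CPM with Pax9 and mesenchymal Crabp1 from 1473 down to 819 CPM with Hand2, while Crabp2 was at 119, 95.5 and 120.4 CPM over 1, 2 and 3 or more Pax9 UMIs.

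At E9.5 Crabp1 was high in the Hand2 groups of mesenchyme. It stood at 1473 CPM in Hand2-negative and 1039.9 CPM in Hand2-positive mesenchyme. Epithelium held 238 CPM (233 to 243), 5.79-fold (5.66 to 5.92) below these 2 groups together. Core-gated cells, which passed the same mesenchymal class gate, held 316 CPM. Endoderm held 123 CPM (114 to 132), close to the 114 CPM (104 to 124) of endothelial cells and 107 CPM (87.2 to 129.6) of blood cells. The endodermal level was thus not read as above that of these cells. It was 115 CPM in endoderm with Pax1 and 138 CPM in endoderm without it. The thinned share of cells told the same, at 40.4% in endoderm, 37.1% in endothelial cells and 37.7% in blood cells, at median depths of 13568, 14207 and 17029 UMIs. Whether free RNA gave the level in these groups was not tested, so the 1.94-fold lower level in endoderm than in epithelium was not read further. The level was lower at higher Hand2 counts, at 819 CPM (793 to 845) in mesenchymal cells with 3 or more, and Hand2-positive cells were 1.42-fold lower (1.39 to 1.44), under the size rule.

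Crabp2 was found in epithelium, endoderm and mesenchyme at E9.5, at a lower level in mesenchyme. It stood at 146 CPM in epithelium, 147 in endoderm, 122 in Hand2-positive and 77.8 in Hand2-negative mesenchyme, against 8.22 CPM in endothelial and 9.34 CPM in blood cells. Epithelium and endoderm had a ratio of 1.00 (0.931 to 1.08). Mesenchyme, with both Hand2 groups together, held 87.4 CPM and was called 1.67-fold lower (1.61 to 1.74) than epithelium. Hand2-positive mesenchyme was 1.56-fold higher (1.48 to 1.65) than Hand2-negative, a call lost with thinning, with equal weight per cell and with no upper limit on genes.

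Between the stages, 6 of 7 members were called, where 50.9% of all genes were called and the median of all genes lay at 0.22 on the log2 scale. Stage, library, depth, sort and the counting of reads cannot be told apart here. The file headers name different Cell Ranger versions, and the gene lists held 27998 and 31053 genes, of which 27514 were shared. The cells also differ in make-up: all kept cells at E12.0, but at E9.5 only epithelial cells without UMIs of Foxa1, Foxa2, Pax1 or Shh. Against E9.5 epithelium, all E12.0 cells together held 6.36-fold more Rarg (5.77 to 7.02), 84.2 against 13.2 CPM, and 2.54-fold more Rara (2.33 to 2.78), 46.2 against 18.2 CPM. Rarb was at 14.8 against 21.9 CPM and was not called. Crabp1 was 4.48-fold lower at E12.0 (53.2 against 238 CPM) and Crabp2 3.60-fold lower (40.6 against 146 CPM). Crabp1 also stood at about 107 CPM in E9.5 blood cells, and the part of free RNA in its difference between stages was not tested. The enzymes were lower too: Aldh1a3 9.22-fold (1.00 against 9.22 CPM, of which 17 cells held 80.0% of the UMIs, with 1.86 CPM in the other epithelial cells) and Cyp26a1 1.75-fold (10.9 against 19.2 CPM), the latter lost when cells were thinned. Cyp26b1 stood at 0.911 against 4.57 CPM.

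The wider pathway, 35 other genes listed by role, was counted in the same way. In the Pax9 zone 5 of 21 compared were called, all higher, beside 12.1% of all genes. Dhrs3, which reduces retinaldehyde back to retinol, stood at 75.2 CPM against 15.7 CPM in all other cells, 4.78-fold higher (4.20 to 5.43). Meis1, a homeobox gene responsive to retinoic acid, was 2.29-fold higher (286 against 125 CPM). Nrip1, a receptor corepressor, was 1.72-fold higher. Aldh1a7 was 7.42-fold higher (20.4 against 2.75 CPM), but it is a near copy of Aldh1a1 (1.97 CPM in this zone), so reads could be split between them. Over the 5 zones Dhrs3 stood at 15.1 CPM in the Dmrt2 zone and 12.3, 10.9 and 9.74 CPM in the Irx1, Pthlh and Gjb2/Gjb6 zones, and was called lower in the last 3.

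In the Dmrt2 zone 4 of 20 were called (10.3% of all genes), all higher, among them Meis1 (1.84-fold), Fabp5, a fatty acid binding protein that also carries retinoic acid (1.54-fold), and the pharyngeal gene Tbx1 (1.67-fold). In the Irx1 zone 6 of 20 were called (8.09%), with Tbx1 (2.99-fold) and Nr2f2 (2.18-fold) higher and Meis1 (2.37-fold), Meis2 (1.80-fold), Rdh10 (1.68-fold) and Dhrs3 lower. Rdh10 makes retinaldehyde from retinol. In the Pthlh zone 3 of 20 were called (4.3%), all lower, among them Rdh10 and Dhrs3. In the Gjb2/Gjb6 zone 5 of 20 were called (9.85%). Rdh10 was higher (1.71-fold, 12.4 against 7.24 CPM), and Dhrs3, Nr2f2 and Tbx1 were among the 4 lower, Tbx1 by 11.5-fold.

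At E9.5, 8 of 22 were called between endoderm and epithelium (7.8% of all genes). The retinol receptor Stra6 (2.48-fold), Rdh10 (2.01-fold), Dhrs3 (1.54-fold), the coactivator Ncoa1 (1.60-fold) and Tbx1 (4.63-fold) were higher in endoderm, and Cyp26c1 (1.65-fold), Meis1 (2.64-fold) and Nr2f1 (2.62-fold) lower. In the endoderm split, Dhrs3 ran against the other enzymes, at 1.40 CPM in cells with Pax1 and 15.9 CPM in cells without it. Between mesenchyme and epithelium 9 of 20 were called (27.8%). Cyp26c1, the third CYP26 enzyme, was 13.5-fold lower in mesenchyme (0.680 against 9.16 CPM), and Nr2f1 18.1-fold higher (246 against 13.6 CPM). Rxra and Tbx1 were also higher, and Tgif1, Meis1, Meis2 and Nr2f2 were among those lower. Within mesenchyme 2 of 19 were called (5.67%), Meis1 being 8.73-fold higher (40.6 against 4.65 CPM) with Hand2 and Tbx1 3.21-fold lower. Between the stages 17 of 22 were called, beside 50.9% of all genes (3597 higher and 1724 lower), with 13 higher at E12.0, among them Rxra (7.09-fold), Ncoa1 (7.17-fold) and Dhrs3 (4.61-fold), and Cyp26c1 was 9.78-fold lower at E12.0.

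Across the 5 zones and 4 E9.5 groups, the genes with profiles most like that of Rarb on the log2(CPM + 1) scale included Cep89 (Pearson's r = 0.954 over 9 groups) and Wipf3 (r = 0.943). For Cyp26a1 the closest was Abhd17b (r = 0.977), ahead of Ocln, a tight junction gene (r = 0.965), and Zfand6. Those closest to Crabp1 included Mrps10 and Rps16. The closest to Crabp2 were Tm2d1, Ubqln4 and Ppp1r35, to Rarg Clock, Cmtm3 and Nab2, to Rara Dis3l2, Camk2g and Hspb1, to Aldh1a3 Tmed2, Rp9 and Rab11fip1, and to Cyp26b1 Clpb, Sec22b and Sobp. The 9 groups come from 2 libraries and the names were drawn from 7952 genes, so they are a description and carry no statement of shared function.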

How the data were processed

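Each library was 10x Genomics single cell 3′ version 3. The deposited counts are whole UMIs per gene and cell, not normalized. The authors aligned reads to GRCm38 with Cell Ranger (2.0.0 per the labels and methods, whereas the file headers name 3.1.0 at E12.0 and 6.1.2 at E9.5), and pooled embryos before capture. The files hold 11663 E12.0 and 14293 E9.5 barcodes. Cells with 200 to 5500 genes and at most 10% mt- UMIs were kept. E9.5 classes needed at least 3 marker UMIs and 3 times each of the other 3 sums, and endoderm at least 2 UMIs of Foxa2, Foxa1, Pax1 or Shh against 0 in epithelium. UMIs were summed per group and set against the group total, with exact 95% Poisson, conditional binomial and Clopper-Pearson intervals. The upper limit for a count of 0 was taken as 3 counts. For shares of cells, each cell was thinned to 4100 UMIs (seed 1), leaving out 1024 E12.0 and 1759 E9.5 cells. Doublets were kept in the main values. Scrublet, run through scanpy 1.11.5, called 661 E12.0 and 331 E9.5 cells.

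No test was run, since each stage is 1 library. The calculation was tested on simulated data. Alternatives changed the gates, depth, doublets, filters and limits. The members and all gene lists were chosen with earlier results of these data known. Named genes were the 9 members in every group, the 35 other pathway genes where called, and for each member the 3 genes with the closest profile among those reaching 20 CPM. Splits by Vgll2, Tfap2b, Pax1 and Foxa1, and the genes described in the Aldh1a3 cells, were chosen after the values were seen. Promoters came from RefSeq (GRCm38.p6) and gene models from GENCODE (GRCm38). Computation used Python 3.11.15 (matplotlib 3.10.9, pandas 2.3.3, scipy 1.17.1, numpy 2.4.6). Results for some genes are not reported here.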

Additional observations from a re-analysis of the deposited data

Results flagged for a closer look

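Crabp1 and Cyp26a1 gave signal in E9.5 cells that entered no comparison. Crabp1 stood at 1667 CPM (1651 to 1683) in the 1389 crest-gated cells, which carry neural crest markers such as Sox10 and Foxd3, above the 1473 CPM of Hand2-negative mesenchyme and the 107 CPM of blood cells. Cyp26a1 stood at 35.4 CPM (30.4 to 41.1) in the 320 core-gated cells, above the 2.07 CPM of mesenchyme and the 19.2 CPM of epithelium, with blood cells at 0 UMIs. Its 173 UMIs there lay in 102 cells, no cell held more than 6, and without the 5 highest cells the level was 30.7 CPM.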

How the results depend on the processing

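The counts of members called were recomputed under 10 alternatives. Of 78 such counts, 45 were unchanged and 11 moved by over 1.5 times. In the Irx1 zone the count went from 2 to 1 with thinned cells and with a 20 CPM minimum, and to 0 at 2-fold. The share of all compared genes called there was 8.09%, and 9.73%, 4.67% and 3.26% under these alternatives. Thinned runs also placed the cells in groups anew, from the thinned counts. In the Gjb2/Gjb6 zone the count went from 4 to 2 at 2-fold and to 2 with a 20 CPM minimum. The share of all genes there was 9.85%, and 4.53% and 6.29% under these alternatives. Between endoderm and epithelium it went from 3 to 5 with thinned cells and to 0 at 2-fold. The share of all genes went from 7.8% to 31.9% with thinned cells, where endoderm fell from 377 to 77 cells, and to 3.02% at 2-fold. Between the Hand2 groups the count went from 1 to 2 with 2 UMIs to pass a gate and with thinned cells. It went to 0 with no upper gene limit and at 2-fold. The share of all genes was 5.67%, and 9.35%, 14.5%, 5.74% and 2.56% under these alternatives in turn. With thinned cells Hand2-positive mesenchyme fell from 961 to 387 cells. Of 266 member fold changes, 1 called value changed sign: Aldh1a3 between endoderm and epithelium, at a log2 difference of 0.76 with thinned cells. The cause was not tested. Leaving out the 5 highest cells of each member, chosen after the values were seen, gave 2, 5 and 1 members called in the 3 E9.5 comparisons. No share of all genes was computed for that setting. Aldh1a3 between endoderm and epithelium again turned, to a log2 difference of 0.079. Cyp26b1 in the Pax9 zone stood close to the 5 CPM limit and lost its call under 5 alternatives, the 20 CPM minimum among them, with log2 differences of 2.22 to 3.37. Genes of few UMIs are limited by depth. No paired analysis was possible because each stage is 1 library and no test was run.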
